A study of Mus musculus with 6 samples.

Results

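The 10 genes described here are the granzymes Gzma, Gzmb, Gzmc, Gzmd and Gzme, the pore-forming protein gene Prf1, the granule protein gene Nkg7, and the receptor genes Klrk1, Klrd1 and Ncr1. They were chosen by symbol from the 55487 genes of the count table, and all 10 were found there. Polyadenylated RNA of whole mouse dorsal skin was measured at day 2 of the experiment, under DPCP (diphencyprone), a chemical that sensitizes skin and causes contact allergy. The tissue of 3 libraries came from skin given DPCP with clodrosome, liposomes carrying clodronate, which kills the phagocytes that take it up (spelled "Codrosome" in some labels). The tissue of 3 more libraries came from skin given DPCP with encapsome, the empty liposomes, so the sensitizer and the liposome shell were common to both groups. Strain, sex and age are not given in the sources used here, nor is whether each library came from its own animal, so the p-values below reflect only how far these libraries spread. The letters A, B and C name the libraries of each group and do not pair them across groups.

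Cytotoxic lymphocytes, mainly natural killer (NK) cells and CD8 T cells, store granzymes and perforin in secretory granules. On contact with a target cell the granules are released, perforin opens the target's membrane, and granzymes enter and cleave proteins that drive cell death. In skin these cells act in contact allergy, where activated T cells attack keratinocytes that carry the sensitizer, and mouse epidermis also holds resident gamma delta T cells that bear the receptor NKG2D.

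Totals ranged from 30605600 to 116965654 counts in clodrosome libraries and from 26649396 to 32066256 counts in encapsome libraries. Values below are CPM, counts relative to a library's scaled total, and a count of 0 allowed up to 0.0502 CPM in clodrosome library A, the deepest, and up to 0.228 CPM in the shallowest. All 8 macrophage markers were lower in clodrosome skin. Cd68 averaged 98.1 ± 27.2 CPM in clodrosome skin and 397 ± 89.9 CPM in encapsome skin (SD, n = 3 each). Adgre1 and Mrc1 were lower by 1.41 and 1.97 on the log2 scale (adjusted p = 0.00086 and 0.0017, edgeR). The 5 dermis markers were all called lower too, while 13% of all genes tested were called lower. All 5 keratinocyte and 5 dermis markers had counts in every library, as the label of whole skin implies. Of the keratinocyte markers the basal gene Krt5 was called higher in clodrosome skin (0.66), and Krt1 (-1.10), Krt10 (-1.36) and Lor (-2.18), genes of the upper layers, were called lower (edgeR). Clodrosome B, encapsome B and encapsome C had rRNA gene shares of 0.796%, 0.845% and 0.788% of counts, while the other 3 libraries had 0.334% to 0.481%.

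The sequences just upstream of 4 granzyme genes are shown because these genes share a serine protease cluster on chromosome 14, yet Gzmb and Gzmc were well detected and Gzmd and Gzme hardly at all, and Gzmc was the gene that differed between groups. Each is the 250 bases before the gene's RefSeq start on the minus strand of GRCm38.p6, written 5′ to 3′. The gene positions given further below are from the Ensembl annotation of the counts, whose starts can differ. On this strand the Ensembl start of Gzmb is base 56262260, apart from its window, and that of Gzmd is base 56132608, inside its window. Capitals mark TGTGGTT, the letters bound by RUNX factors, on either strand (AACCACA on the other), and TGACGT, the core of the cAMP response element (ACGTCA on the other). The windows are chr14:56234658-56234907 for Gzmc, chr14:56132594-56132843 for Gzmd, chr14:56120626-56120875 for Gzme and chr14:56262335-56262584 for Gzmb.
Gzmc: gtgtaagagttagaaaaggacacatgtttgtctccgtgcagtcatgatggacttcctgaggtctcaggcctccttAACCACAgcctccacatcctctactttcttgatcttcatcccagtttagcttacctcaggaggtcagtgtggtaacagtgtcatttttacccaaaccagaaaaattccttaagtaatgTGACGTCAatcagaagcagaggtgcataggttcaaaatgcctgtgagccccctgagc
Gzmd: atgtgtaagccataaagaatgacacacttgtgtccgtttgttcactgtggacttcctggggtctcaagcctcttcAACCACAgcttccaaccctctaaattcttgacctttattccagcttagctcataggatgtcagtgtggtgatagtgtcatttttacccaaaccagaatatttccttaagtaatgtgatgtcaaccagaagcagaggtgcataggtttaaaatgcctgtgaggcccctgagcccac
Gzme: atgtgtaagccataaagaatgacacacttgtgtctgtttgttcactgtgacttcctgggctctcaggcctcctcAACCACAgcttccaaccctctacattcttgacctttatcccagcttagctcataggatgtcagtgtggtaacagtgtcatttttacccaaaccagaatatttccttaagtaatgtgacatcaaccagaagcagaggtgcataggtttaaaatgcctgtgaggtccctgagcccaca
Gzmb: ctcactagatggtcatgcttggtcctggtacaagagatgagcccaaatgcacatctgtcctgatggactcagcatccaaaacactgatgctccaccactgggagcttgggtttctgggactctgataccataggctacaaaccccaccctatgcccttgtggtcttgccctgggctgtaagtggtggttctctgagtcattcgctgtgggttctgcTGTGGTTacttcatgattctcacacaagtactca
The Gzmd and Gzme windows were identical at 94.8% of aligned positions. Gzmc was 80.5% identical to Gzmd and 80.9% to Gzme, whereas Gzmb was 44.1% to 47.5% identical to the other 3. The RUNX letters began 175 bases before the RefSeq start in Gzmc and Gzmd, 176 in Gzme and 34 in Gzmb. The distances do not hold for the Ensembl starts of Gzmb and Gzmd, and not exactly for that of Gzmc (base 56234656). The Ensembl start of Gzme, base 56120625, lies directly next to its window, so its distance holds. At the place where Gzmc has the capital run TGACGTCA, which holds TGACGT on both strands, neither Gzmd nor Gzme has those letters. The RUNX letters were in the windows of 7 of the 9 genes with an entry (Gzma, Gzmb, Gzmc, Gzmd, Gzme, Klrk1 and Ncr1), against 4.46% of 27025 mouse promoters. The letters TGACGT were in Gzmc and Prf1, against 6.56% of promoters. The letters AGGTGT, part of the site of T-box factors (ACACCT on the other strand), were in Gzma, Prf1 and Nkg7, against 12% of promoters. These motifs were picked with the sequences in view, and a match in letters is not a measured binding site.

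After the filter on low counts, 8 of the 10 genes were tested, and 1 of the 8 was called: Gzmc was lower in clodrosome skin. Over all 17988 genes tested the call rate was 22.4%, with 13% called lower and 9.41% called higher (edgeR quasi-likelihood test, Benjamini-Hochberg adjusted p under 0.05). The share of these genes called, 12.5%, was thus not above the background. No gene of the 8 was called higher by edgeR or by DESeq2, and Gzmc was the only 1 of them with an unadjusted p under 0.05. The median log2 fold change of the 8 genes, clodrosome over encapsome, was -0.08, and that of all genes tested was 0.01.

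**Figure D1:**
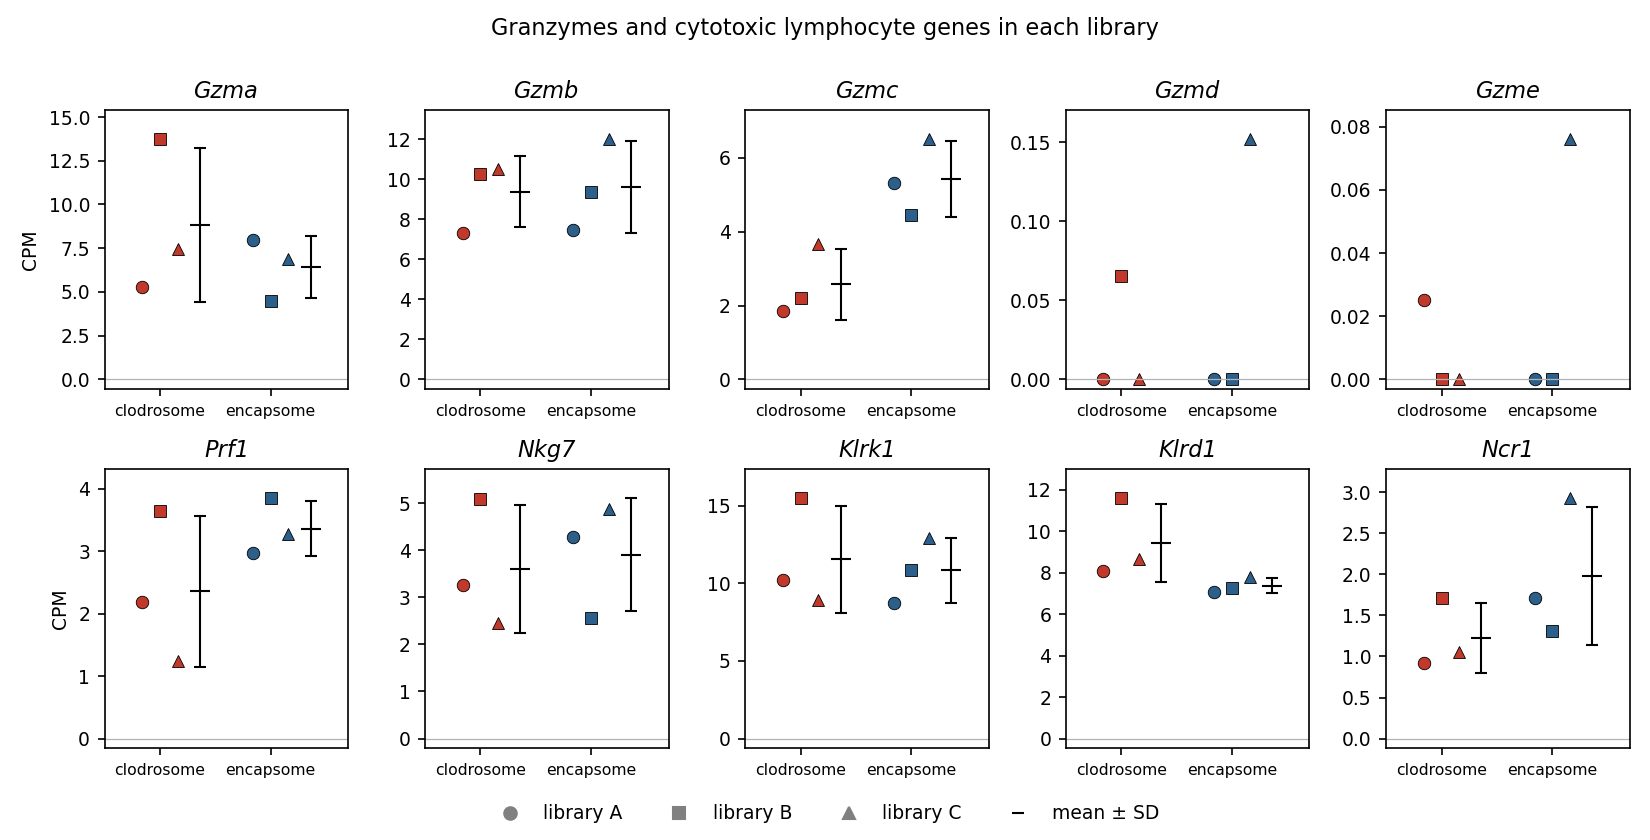
CPM of each of the 10 genes in every library, clodrosome left of encapsome in each panel; points are libraries and bars are the mean ± SD of 3 libraries for the 8 genes tested. Gzmc is the gene whose clodrosome libraries (1.85 to 3.67 CPM) all lie below the encapsome libraries (4.44 to 6.50 CPM), and Klrd1 the gene whose clodrosome libraries all lie above.

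Gzmc encodes granzyme C, a granule protease of activated mouse cytotoxic lymphocytes (ENSMUSG00000079186, chr14:56231441-56234656 in GRCm38, minus strand). It stood at 1.85, 2.2 and 3.67 CPM in clodrosome libraries A, B and C, against 5.32, 4.44 and 6.50 CPM in encapsome libraries A, B and C. The highest clodrosome library lay below the lowest encapsome library, as it did for 20.7% of all genes tested. The means were 2.57 ± 0.969 CPM in clodrosome skin and 5.42 ± 1.03 CPM in encapsome skin (SD, n = 3 each). The log2 fold change was -1.10 ± 0.270 (SE, 95% interval -1.70 to -0.49, adjusted p = 0.0184, edgeR), a level 2.14-fold lower in clodrosome skin. The call was lost without clodrosome library A (-0.87, adjusted p = 0.0554, edgeR) and without encapsome library C (-0.94, adjusted p = 0.0701, edgeR), the highest adjusted p of its 14 alternatives. In whole tissue, fewer cells that express a gene and less RNA per cell cannot be told apart.

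Reads can be lost from granzymes that resemble each other, because reads placed at several sites were left out. Of the 50-base windows of the Gzmc transcripts, 4.14% also occurred in another gene, and so did 21.9% of those of Gzmd and 20.6% of those of Gzme. No 150-base window, the length of a read end, was shared for any of the 10 genes. None of the 10 shared exonic bases with an annotated neighbour.

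Gzmb encodes granzyme B, the protease that cleaves Bid and other death proteins in target cells (chr14:56258838-56262260, minus strand), and lies next to Gzmc. It stood at 7.34, 10.3 and 10.5 CPM in clodrosome libraries A, B and C, against 7.45, 9.35 and 12.02 CPM in encapsome libraries A, B and C. The groups overlapped across nearly their whole range. The log2 fold change was -0.04 ± 0.199 (SE, 95% interval -0.49 to 0.41, adjusted p = 0.909, edgeR), an interval that excludes a difference as large as that estimated for Gzmc.

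The ratio of Gzmc to Gzmb shows the gap between the neighbours within each library. It was 0.252, 0.214 and 0.349 in clodrosome libraries A, B and C, against 0.714, 0.475 and 0.541 in encapsome libraries A, B and C, with no overlap. The ratio of Gzmc to each of the 7 other tested genes was compared in this way. Gzmc was already the gene called lower in these same libraries. Lower ratios therefore describe that difference and are not separate support for it. Groups did not overlap for the ratios to Gzma, Gzmb and Klrd1, for which the exact two-sided permutation p was 0.1, the smallest that 3 against 3 can give (0.233 after adjustment over the 7 ratios). Groups overlapped for the ratios to Prf1, Nkg7, Klrk1 and Ncr1 (exact permutation p = 0.2 to 0.6).

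Gzma encodes granzyme A, a protease that cuts after basic residues (ENSMUSG00000023132, chr13:113093825-113100981, minus strand). It stood at 5.28, 13.7 and 7.43 CPM in clodrosome libraries A, B and C, against 7.97, 4.5 and 6.88 CPM in encapsome libraries A, B and C. Clodrosome library B was above every other library, and clodrosome A and C lay inside the encapsome range. On the log2 scale the fold change was 0.43 ± 0.337 (SE, 95% interval -0.33 to 1.19, adjusted p = 0.408, edgeR). Without clodrosome library B it was -0.03.

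Gzmd (chr14:56129556-56132608, minus strand) and Gzme (chr14:56117626-56120625, minus strand), granzymes of the same cluster, stayed under the count filter. Gzmd had 0, 2 and 0 counts in clodrosome libraries A, B and C, and 0, 0 and 4 counts in encapsome libraries A, B and C. Gzme had 3, 0 and 0 counts in clodrosome libraries A, B and C, and 0, 0 and 2 counts in encapsome libraries A, B and C. Both genes were at or under the limit that a count of 0 allows in every library, so no fold is given and a difference was not detectable at this depth.

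Prf1 encodes perforin (chr10:61297833-61304680, plus strand). It stood at 2.18, 3.65 and 1.24 CPM in clodrosome libraries A, B and C, against 2.97, 3.85 and 3.27 CPM in encapsome libraries A, B and C. Clodrosome A and C were below every encapsome library, and clodrosome B was among them. The log2 fold change was -0.53 ± 0.331 (SE, 95% interval -1.27 to 0.21, adjusted p = 0.290, edgeR). Without clodrosome library B, Prf1 was called lower (-0.92, adjusted p = 0.0419, edgeR). Over its other alternatives the adjusted p lay between 0.138 and 0.762, and with the rRNA share as a covariate its log2 fold change was -0.14.

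Nkg7 encodes a membrane protein of cytotoxic granules that is needed for their efficient release (chr7:43437073-43438249, plus strand). It stood at 3.25, 5.09 and 2.46 CPM in clodrosome libraries A, B and C, against 4.29, 2.56 and 4.87 CPM in encapsome libraries A, B and C. The highest and the lowest library were both clodrosome. On the log2 scale the fold change was -0.13 ± 0.304 (SE, 95% interval -0.81 to 0.56, adjusted p = 0.807, edgeR).

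Among the receptors, Klrd1 encodes CD94, which pairs with NKG2 proteins to read the nonclassical class I molecule Qa-1 (chr6:129591782-129598775, plus strand). It stood at 8.08, 11.6 and 8.65 CPM in clodrosome libraries A, B and C, against 7.06, 7.29 and 7.80 CPM in encapsome libraries A, B and C. Every clodrosome library was above every encapsome library, which held for 19.5% of all genes tested. Its estimated log2 fold change was 0.35 ± 0.156 (SE, 95% interval -0.004 to 0.70), and the edgeR adjusted p of 0.144 missed the threshold. With the rRNA share as a covariate the call was made (0.52, adjusted p = 0.0272, edgeR), and over all its alternatives the adjusted p lay between 0.0272 and 0.323. Together with Gzmc, Klrd1 made 2 of the 8 tested genes whose groups did not overlap, against 40.2% of all genes tested.

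Klrk1 encodes NKG2D, an activating receptor for stress-induced ligands (chr6:129610323-129623864, minus strand). It stood at 10.2, 15.5 and 8.92 CPM in clodrosome libraries A, B and C, against 8.71, 10.9 and 12.9 CPM in encapsome libraries A, B and C. The groups overlapped. For this receptor the log2 fold change was 0.08 ± 0.216 (SE, 95% interval -0.40 to 0.57, adjusted p = 0.818, edgeR).

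Ncr1 encodes NKp46, an activating receptor of NK cells and related innate lymphoid cells (chr7:4337724-4345164, plus strand). It stood at 0.920, 1.71 and 1.05 CPM in clodrosome libraries A, B and C, against 1.71, 1.31 and 2.93 CPM in encapsome libraries A, B and C. Clodrosome A and C were the lowest of the 6 libraries. The log2 fold change was -0.72 ± 0.358 (SE, 95% interval -1.53 to 0.08), and the edgeR adjusted p of 0.181 missed the threshold.

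**Figure D2:**
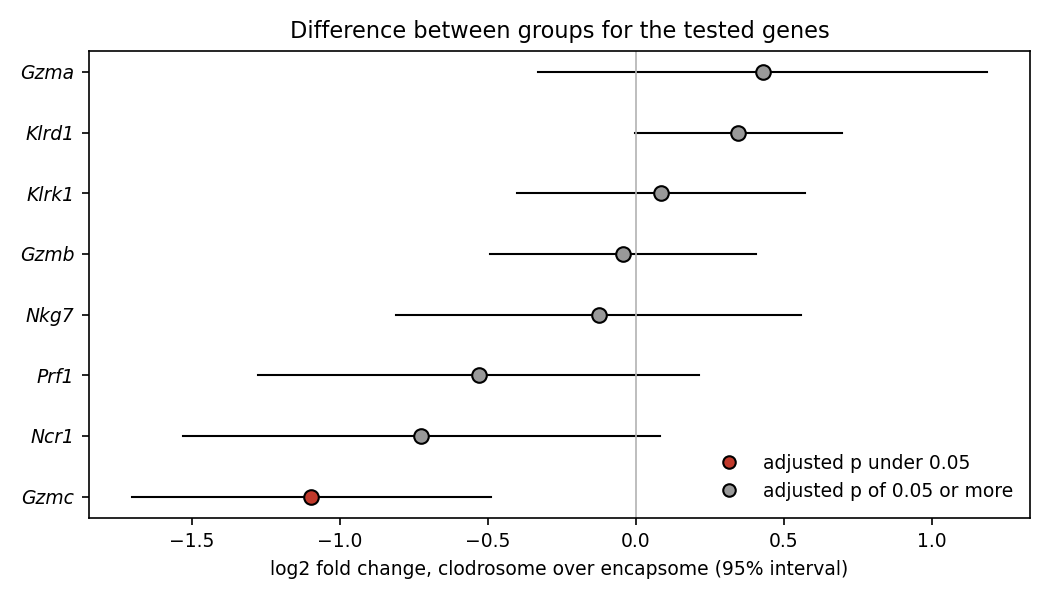
Log2 fold change (clodrosome over encapsome) of the 8 genes tested, with points for the estimate and lines for the 95% interval. The interval of Gzmc (-1.70 to -0.49) lies below 0, and the intervals of the other 7 include 0.

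Levels of different genes were compared only as CPM per kb of exon, averaged over the 6 libraries. In that scale the order was Gzma (7.59), Gzmb (6.61), Klrd1 (6.57), Gzmc (4.47), Nkg7 (4.11), Klrk1 (1.56), Prf1 (1.11) and Ncr1 (1.04), with Gzmd (0.038) and Gzme (0.018) far below. Neighbours in this order overlapped in their range over libraries, with gaps only between Nkg7 (lowest library 2.69 CPM per kb) and Klrk1 (highest library 2.15 CPM per kb), and between Ncr1 and Gzmd. This order is that of the mean over both groups. In clodrosome skin alone Gzma (8.76 CPM per kb), Klrd1 (7.37), Gzmb (6.53) and Nkg7 (3.94) stood above Gzmc (2.88). In encapsome skin alone Gzmb (6.69) and Gzma (6.41) were followed by Gzmc (6.07), ahead of Klrd1 (5.76).

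Within each group, the same library stood highest for most of these genes. Clodrosome library B was the highest clodrosome library for 6 of the 8 tested genes (Gzma, Prf1, Nkg7, Klrk1, Klrd1 and Ncr1). This was not particular to them. Clodrosome B was also highest for 10 of 13 T cell receptor complex genes, 7 of 7 neutrophil markers and 5 of 5 pan leukocyte genes. It was highest for 0 of 8 macrophage markers and 0 of 9 mast cell and basophil markers. The share over all genes was not counted. Encapsome library C was the highest encapsome library for 6 of the 8 (Gzmb, Gzmc, Nkg7, Klrk1, Klrd1 and Ncr1). The summed level of the 10 genes was 39.1, 63.8 and 44.0 CPM in clodrosome libraries A, B and C, against 45.5, 44.2 and 57.4 CPM in encapsome libraries A, B and C. The 3 libraries with the higher rRNA share, clodrosome B, encapsome B and encapsome C, had sums of 63.8, 44.2 and 57.4 CPM. The part of the rRNA share in this pattern was tested only as a covariate, with the values for Klrd1 above and those for Gzmb and Nkg7 in the closing section.

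**Figure D3:**
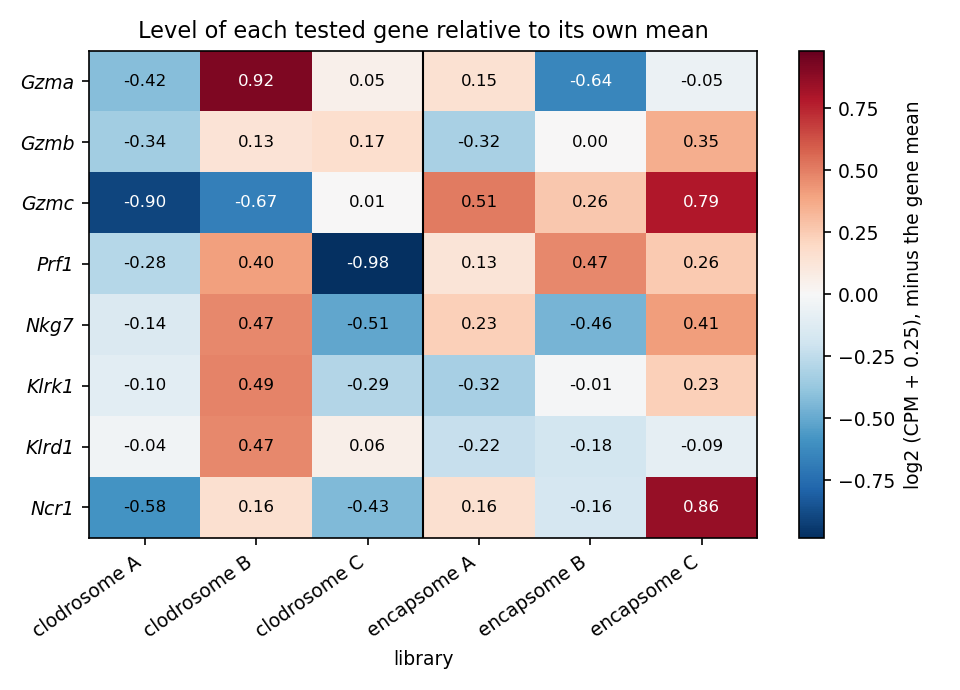
Log2 CPM of the 8 tested genes minus each gene's mean over the 6 libraries, with clodrosome libraries left of encapsome libraries. Gzma ranges from -0.64 in encapsome B to 0.92 in clodrosome B, and Gzmc is the gene with its 3 highest values in the 3 encapsome libraries.

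Of 15292 candidate genes (mean 1 CPM or more), the 5 whose profile lay nearest to that of Gzma, the gene highest per kb in the mean over both groups, were Saa2, Aknad1, Gm3776, Ephx4 and Klrb1c. Their distances, as the root mean square of differences in centred log2 CPM over the 6 libraries, were 0.159, 0.191, 0.191, 0.205 and 0.206. Klrb1c encodes the NK cell marker NK1.1. It stood at 2.09, 3.38 and 2.40 CPM in clodrosome libraries A, B and C, against 2.55, 1.28 and 2.05 CPM in encapsome libraries A, B and C. As with Gzma, clodrosome B was the highest and encapsome B the lowest library, and the same held for Saa2, Aknad1, Gm3776 and Ephx4. All 5 were picked for their likeness to Gzma, so this shared order follows from the choice and is not a separate result.

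The cluster of serine proteases on chromosome 14 that holds Gzmb, Gzmc, Gzmd and Gzme spans chr14:55941451-56262260 and has 15 genes, from the mast cell chymase gene Cma1 to Gzmb. Of the 6 that passed the filter, 3 were called lower in clodrosome skin and 0 were called higher (edgeR). The shares over all genes were 13% called lower and 9.41% called higher. Besides Gzmc the cluster genes called lower were Cma1 and the mast cell protease gene Mcpt4. Cma1 had 57.2, 44.5 and 52.7 CPM in clodrosome libraries and 78.6, 98.7 and 98.7 CPM in encapsome libraries. Mcpt4 had a log2 fold change of -0.997 ± 0.127 (SE, adjusted p = 0.00076, edgeR). The basophil protease gene Mcpt8 (-0.34) and the cathepsin G gene Ctsg (-0.71) had edgeR adjusted p values of 0.584 and 0.291. Gzmg and Gzmn had 0 counts in every library, and Gzmf had at most 7 counts in a library.

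**Figure D4:**
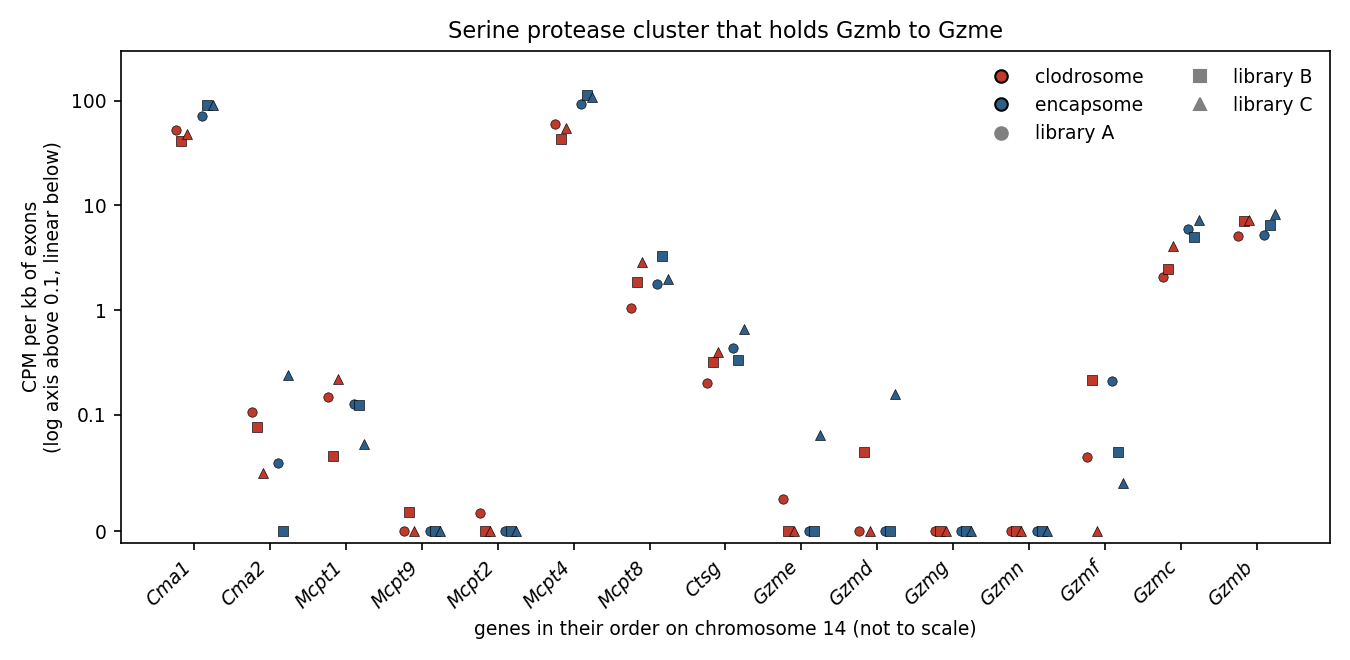
CPM per kb of exon for the 15 genes of the chromosome 14 cluster in their genomic order, each library as a point, clodrosome left of encapsome. Cma1, Mcpt4 and Gzmc are lower in all 3 clodrosome libraries, Gzmb overlaps between groups, and the granzyme genes from Gzme to Gzmf are near 0.

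Of the mast cell and basophil markers, 6 of 9 were called lower in clodrosome skin, against 13% of all genes. None of these markers was called higher (median log2 fold change -0.84). Their summed level was 198 to 269 CPM in clodrosome libraries and 392.5 to 469.3 CPM in encapsome libraries, and no marker was at 0 in every library. The pan leukocyte genes were also lower, with 4 of 5 called (median -0.67), against 13% of all genes. Their summed level was 661 to 830 CPM in clodrosome libraries and 1181 to 1331 CPM in encapsome libraries. Both sums were lower in clodrosome skin, as Gzmc was, but their order within groups differed from that of Gzmc. Encapsome library B had the lowest encapsome level of Gzmc (4.44 CPM) and the highest of both sums (469 and 1331 CPM). Clodrosome library A had the lowest level of Gzmc (1.85 CPM) and the highest clodrosome sum of mast cell and basophil markers (269 CPM). The part of these cells in the level of Gzmc was not tested.

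Other granzymes were scarcely detected. Of Gzmf, Gzmg, Gzmk, Gzmm and Gzmn, only Gzmm passed the filter, at 0.828 ± 0.196 CPM in clodrosome skin and 0.857 ± 0.246 CPM in encapsome skin (SD, n = 3 each). Its log2 fold change was -0.08 (adjusted p = 0.885, edgeR).

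Of 12 tested genes that load and release granules, 1 was called higher, 3 were called lower and 8 were not called (median log2 fold change -0.09, against 0.01 over all genes). Over all genes 9.41% were called higher and 13% lower. Lamp1, a lysosomal membrane protein that reaches the surface when granules fuse, averaged 445 ± 9.56 CPM in clodrosome skin and 834 ± 60.5 CPM in encapsome skin (SD, n = 3 each). Its log2 fold change was -0.91 ± 0.0834 (SE, adjusted p = 0.00016, edgeR). The membrane fusion gene Snap23 fell by 0.47 on the log2 scale (adjusted p = 0.0021, edgeR). Ctsc, the protease that activates granzymes, fell by 0.71 (adjusted p = 0.0213, edgeR), a call lost without encapsome library A (adjusted p = 0.0618, edgeR) or B (adjusted p = 0.0699, edgeR). Stx11, a syntaxin needed for granule release, rose by 0.50 ± 0.0964 (SE, adjusted p = 0.0062, edgeR). Most of these genes are also active in other cells, Lamp1 and Ctsc among them, and the fall of macrophage markers was measured in the same libraries, without a test of its part.

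Inhibitors of granzymes were split, with 2 of 5 called higher and 2 called lower, against 9.41% and 13% of all genes. Serpinb6b, a serpin that blocks granzyme A in mice, averaged 12.5 ± 2.94 CPM in clodrosome skin and 6.44 ± 0.484 CPM in encapsome skin (SD, n = 3 each). Its log2 fold change was 0.95 ± 0.172 (SE, adjusted p = 0.0044, edgeR). Serpinb9, which blocks granzyme B, rose by 0.35 (adjusted p = 0.0412, edgeR). Serpina3n, an extracellular inhibitor of granzyme B in mice, fell by 0.57 (adjusted p = 0.0291, edgeR), and the serpin gene Serpinb6a fell by 0.31 (adjusted p = 0.0349, edgeR). The Serpinb9 call was lost when any library other than clodrosome A was left out (adjusted p = 0.0573 to 0.121, edgeR), and the Serpinb6a call when any library other than clodrosome B was left out (adjusted p = 0.0860 to 0.106, edgeR). The Serpina3n call was lost without encapsome A, B or C (adjusted p = 0.0611 to 0.0845, edgeR).

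Of 6 tested substrates of granzymes and downstream death proteins, 2 were called lower and none higher (median -0.18), against 13% and 9.41% of all genes. Bid, which granzyme B cleaves to trigger the mitochondrial path of cell death, averaged 16.8 ± 1.30 CPM in clodrosome skin and 24.6 ± 2.88 CPM in encapsome skin (SD, n = 3 each; log2 fold change -0.55, adjusted p = 0.0070, edgeR). The initiator caspase gene Casp8 fell by 0.30 (adjusted p = 0.0239, edgeR), a call lost without clodrosome A or C or encapsome B or C (adjusted p = 0.0726 to 0.0983, edgeR).

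For NKG2D, the list of ligands and signalling adaptors gave 1 gene called higher and 1 called lower of 7 tested (median -0.34). Shares over all genes were 9.41% and 13%. H60c, a ligand made by mouse keratinocytes, stood at 25.2, 40.6 and 34.2 CPM in clodrosome libraries A, B and C, against 24.7, 20.8 and 22.2 CPM in encapsome libraries A, B and C. Its log2 fold change was 0.55 ± 0.159 (SE, adjusted p = 0.0344, edgeR), a call lost when any library other than clodrosome A was left out (adjusted p = 0.0534 to 0.126, edgeR). Tyrobp, the adaptor DAP12, which macrophages also use, averaged 207 ± 28.9 CPM in clodrosome skin and 403 ± 18.3 CPM in encapsome skin (SD, n = 3 each; log2 fold change -0.96, adjusted p = 0.00036, edgeR). The ligand genes Ulbp1 (-0.34) and Raet1d (-0.42) missed the threshold (adjusted p = 0.104 and 0.18, edgeR).

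None of the 3 tested partners and ligands of CD94 was called (edgeR), although Klrc2 and H2-T23 had an unadjusted p under 0.05. Klrc2, the activating partner NKG2C, stood at 0.978, 1.38 and 1.19 CPM in clodrosome libraries A, B and C, against 0.387, 0.563 and 0.875 CPM in encapsome libraries A, B and C. Its groups did not overlap, as for Klrd1 itself, and its log2 fold change was 0.95 ± 0.344 (SE, adjusted p = 0.0783, edgeR). The inhibitory partner gene Klrc1 had 0.38 (adjusted p = 0.398, edgeR), and H2-T23, which encodes the ligand Qa-1, had -0.28 (adjusted p = 0.0771, edgeR). Without encapsome library C, Klrc2 was called higher (1.29, adjusted p = 0.0494, edgeR), and without clodrosome library B, H2-T23 was called lower (-0.36, adjusted p = 0.0239, edgeR).

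Of 14 other NK cell receptors and markers, 1 was called higher and 1 lower (median -0.17), against 9.41% and 13% of all genes. Slamf7, a receptor of NK cells that macrophages also carry, stood at 10.6, 12.1 and 10.3 CPM in clodrosome libraries A, B and C, against 49.6, 23.6 and 37.0 CPM in encapsome libraries A, B and C. It fell by 1.74 on the log2 scale (adjusted p = 0.00085, edgeR). Tigit, an inhibitory receptor of T and NK cells, rose by 0.90 (adjusted p = 0.0205, edgeR), a call lost without clodrosome C or encapsome B or C (adjusted p = 0.0685 to 0.0776, edgeR). The activating receptor gene Cd226 (-0.60) and the late differentiation marker gene Klrg1 (0.95) missed the threshold (adjusted p = 0.0576 and 0.0926, edgeR). Without encapsome library C, Cd226 was called lower (-0.75, adjusted p = 0.0330, edgeR).

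Of 13 genes of the T cell receptor complex and its signalling, 2 were called higher and 1 lower, with a median log2 fold change of 0.52, and over all genes 9.41% were called higher and 13% lower. The number called higher was 6 with the rRNA share as a covariate, 5 without the filter, 4 with DESeq2 and 3 with upper quartile scaling. It was 1 without encapsome library A or C and 0 without clodrosome library B or encapsome library B. Groups did not overlap in the higher direction for 8 of the 13, against 19.5% of all genes. Trbc2, a constant segment of the receptor beta chain, stood at 20.3, 26.4 and 20.6 CPM in clodrosome libraries A, B and C, against 17.1, 14.8 and 17.6 CPM in encapsome libraries A, B and C (log2 fold change 0.44, adjusted p = 0.0345, edgeR). The kinase gene Lck rose by 0.55 (adjusted p = 0.0362, edgeR). The Trbc2 call was lost without clodrosome B or any encapsome library (adjusted p = 0.0590 to 0.135, edgeR), and the Lck call without clodrosome A or B or encapsome B or C (adjusted p = 0.0737 to 0.123, edgeR). Cd247, the zeta chain that also serves NKp46 in NK cells, had 0.67 (adjusted p = 0.0576, edgeR) and was called higher without clodrosome A (adjusted p = 0.0302, edgeR) or encapsome C (adjusted p = 0.0466, edgeR). Cd3g, named after its value was seen, had the other direction (-0.22, adjusted p = 0.489, edgeR).

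Thy1 was the T cell list's gene called lower, by 0.98 on the log2 scale (adjusted p = 0.00072, edgeR), and fibroblasts also express it. Its mean was 89.2 ± 13.9 CPM in clodrosome skin and 176 ± 18.4 CPM in encapsome skin (SD, n = 3 each). The summed level of the 5 dermis markers, among them the collagens of fibroblasts, was also lower in clodrosome skin. It was 2027 to 3965 CPM in clodrosome libraries and 7526 to 8907 CPM in encapsome libraries, and the part of fibroblasts was not tested.

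The coreceptors gave no call. Cd8a and Cd8b1, the chains of CD8, had log2 fold changes of 0.30 and 0.13 (adjusted p = 0.584 and 0.830, edgeR), with summed levels of 3.37 to 5.68 CPM in clodrosome libraries and 2.16 to 5.17 CPM in encapsome libraries. Among CD4 T cell genes, Cd4 had -0.67, Icos 0.41 and the regulatory T cell gene Foxp3 0.56 (adjusted p = 0.0870, 0.112 and 0.138, edgeR). Without encapsome library C, Cd4 was called lower (-0.88, adjusted p = 0.0358, edgeR), and without clodrosome library A, Icos was called higher (0.56, adjusted p = 0.0482, edgeR). Some mouse macrophages and dendritic cells also carry CD4.

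Genes of gamma delta and dendritic epidermal T cells gave 1 lower call in 7 tested (median 0.10), against 13% of all genes. The call was Fgf9, a growth factor that gamma delta T cells of mouse dermis can make, at 0.552, 0.329 and 0.994 CPM in clodrosome libraries A, B and C, against 1.39, 2.10 and 1.37 CPM in encapsome libraries A, B and C. Its log2 fold change was -1.38 ± 0.384 (SE, adjusted p = 0.0311, edgeR), and the call was lost when any library other than clodrosome C was left out (adjusted p = 0.0526 to 0.129, edgeR). The receptor delta chain gene Trdc had -0.07 (adjusted p = 0.861, edgeR), named after its value was seen.

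**Figure D5:**
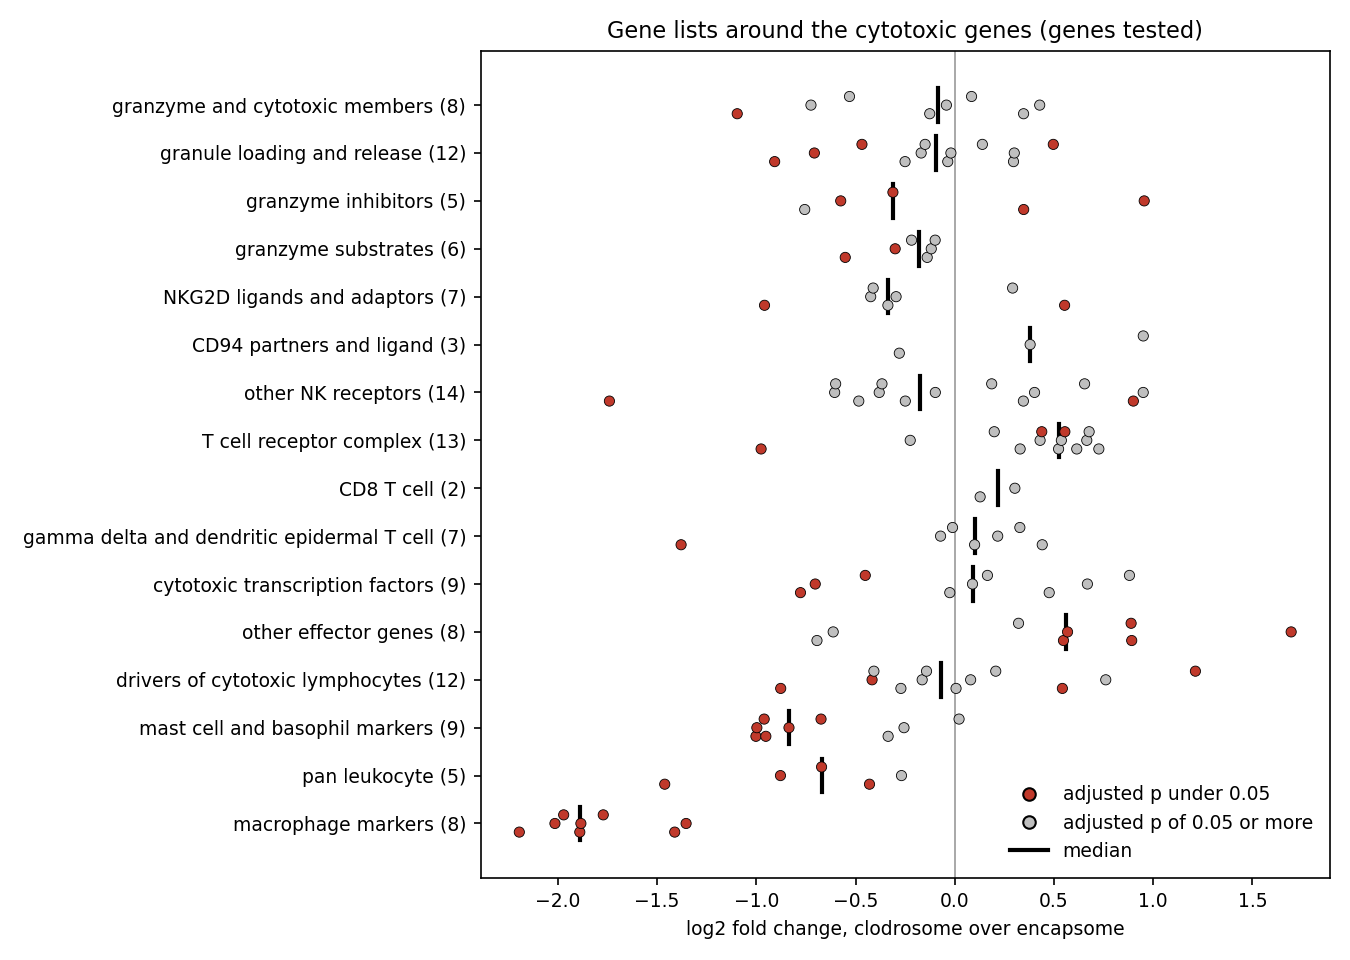
Log2 fold changes (clodrosome over encapsome) of the tested genes of each list, with a point per gene, red where the edgeR adjusted p was under 0.05, and a bar at the list's median. The cytotoxic genes described here have a median of -0.08, the other effector genes 0.56, the T cell receptor complex 0.52 and the macrophage markers -1.89.

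Of 9 transcription factors of cytotoxic lymphocytes, 3 were called lower and none higher (median 0.09), against 13% and 9.41% of all genes. Runx3, which drives CD8 T cell and NK cell programs, stood at 8.47, 9.89 and 9.48 CPM in clodrosome libraries A, B and C, against 12.5, 18.2 and 16.9 CPM in encapsome libraries A, B and C (log2 fold change -0.78, adjusted p = 0.0061, edgeR). Zeb2, a factor of terminal effector cells that macrophages also express, fell by 0.70 (adjusted p = 0.0014, edgeR). Id2 fell by 0.45 (adjusted p = 0.0182, edgeR), a call lost without clodrosome A or C or encapsome B or C (adjusted p = 0.0572 to 0.0731, edgeR). Which cells of whole skin expressed Runx3 and Id2 was not tested. Tbx21, which encodes T-bet, had 0.88 and overlapping groups (adjusted p = 0.215, edgeR).

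Other effector genes of cytotoxic lymphocytes gave 5 called higher and none lower of 8 tested, with a median of 0.56 against 0.01 over all genes. Over all genes 9.41% were called higher and 13% lower. The 3 not called were Ifng (-0.69), Xcl1 (-0.61) and Fasl (0.32), named after their values were seen (adjusted p = 0.251, 0.366 and 0.653, edgeR). The list thus did not move as a whole. Ccl5, a chemokine of effector T and NK cells, stood at 8.25, 8.91 and 6.52 CPM in clodrosome libraries A, B and C, against 2.61, 2.41 and 2.28 CPM in encapsome libraries A, B and C. Its log2 fold change was 1.69 ± 0.167 (SE, adjusted p = 0.00022, edgeR), and the lowest clodrosome library was above the highest encapsome library. The chemokine genes Ccl3 and Ccl4 both rose by 0.89 (adjusted p = 0.0036 and 0.0107, edgeR), and Tnfsf10, the death ligand TRAIL, rose by 0.57 (adjusted p = 0.0046, edgeR). The fifth call, Il2rb (0.55, adjusted p = 0.0309, edgeR), a receptor chain for IL-2 and IL-15, was named after its value was seen and was lost without clodrosome A or B or encapsome A or B (adjusted p = 0.0590 to 0.0872, edgeR).

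Neutrophils also make Ccl3 and Ccl4. The neutrophil markers gave 2 of 7 called higher and none lower (median 0.43), against 9.41% and 13% of all genes. The 2 were Retnlg (2.07, adjusted p = 0.00037, edgeR) and Ly6g (1.59, adjusted p = 0.0128, edgeR). The Ly6g call was lost without encapsome library B (adjusted p = 0.0572, edgeR), where S100a8 was called higher (0.64, adjusted p = 0.0340, edgeR). The 5 not called were split in direction. S100a8 and S100a9 each had 0.43, while Csf3r had -0.21, Cxcr2 -0.24 and Mmp8 -0.32 (adjusted p = 0.111 to 0.527, edgeR). Csf3r, Cxcr2 and Mmp8 were named after their values were seen. The number called higher was 4 with DESeq2, without the filter and with the rRNA share as a covariate, and 1 with the filter of 1 CPM. The number called lower was 1 without the filter. It was also 1 without encapsome library A, where Mmp8 was called lower (-0.50, adjusted p = 0.0296, edgeR). The summed level of the neutrophil markers was 1407 to 1975 CPM in clodrosome libraries and 1009 to 1622 CPM in encapsome libraries. The groups overlapped in this sum, in which abundant genes weigh most, and no marker was at 0 in every library. The part of neutrophils in these chemokine levels was not tested.

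Cytokines and receptors that drive cytotoxic lymphocytes gave 2 genes called higher and 2 called lower of 12 tested (median -0.07). Shares over all genes were 9.41% and 13%. Il15, which sustains NK cells and memory CD8 T cells, averaged 6.93 ± 0.585 CPM in clodrosome skin and 9.24 ± 0.628 CPM in encapsome skin (SD, n = 3 each; log2 fold change -0.42, adjusted p = 0.0400, edgeR). Il21r fell by 0.88 (adjusted p = 0.0073, edgeR). Il12a, a subunit of IL-12, rose by 1.21 (adjusted p = 0.0415, edgeR) and Il2ra, the IL-2 receptor alpha chain, by 0.54 (adjusted p = 0.0461, edgeR). The calls of Il12a (adjusted p = 0.0772 to 0.148, edgeR) and Il2ra (adjusted p = 0.0525 to 0.164, edgeR) were lost without each of the 6 libraries in turn, and that of Il15 when any library other than clodrosome B was left out (adjusted p = 0.0653 to 0.129, edgeR).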

How the data were processed

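Per the labels' protocols, skin was kept in RNAlater, RNA was extracted with TRIzol, and stranded mRNA libraries were read as paired ends. The submitters' processing notes name Trimmomatic 0.36, HISAT2 2.2.1, StringTie 2.2.1, featureCounts 1.6.2, DESeq2 1.34.0 and the build mm10. The deposited table holds raw counts per gene, made by the authors with featureCounts 1.6.2 on Ensembl 102 (GRCm38) per the file headers, and its Length column gives exonic bases. The command has no option for pairs, strand, multiply placed or multiply assigned reads. By default each read end is then counted by itself without regard to strand, and ambiguous reads are dropped. An antisense gene with overlapping exons would thus lose or share reads. The limit that a count of 0 allows is 6 counts (3 fragments), for counting error only.

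Column names gave the group of each of the 6 columns, and 0 further sample columns were present. The edgeR 4.0.16 quasi-likelihood test (R 4.3.3, TMM scaling, group as the only term) was run after filterByExpr (count minimum 10, total minimum 15), and was first tested on simulated data. P-values were adjusted over 17988 genes at a threshold of 0.05. Standard errors are the log2 fold change over the root of the F statistic. Ratios used exact permutation tests (scipy 1.17.1), and alignments used Biopython 1.88. The 10 genes, the lists and the tests were chosen with earlier results of these data known. The named genes are the 10, up to 4 with the smallest p per list, 3 macrophage markers and the 5 nearest to Gzma (pseudocount 0.25 CPM). Some genes that this rule selects from the substrate list are not reported here. The lists held 175 symbols, and Vamp7, Gsdmb and Trgv5 were not found in the table. Alternatives were other scalings, DESeq2 1.42.0, filters of none or 1 CPM in 3 libraries, counts divided to fragments, the deepest library thinned, the rRNA share as covariate, and each library left out.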

Additional observations from a re-analysis of the deposited data

How the results depend on the processing

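Under the 8 alternatives other than leaving out a library, Gzmc was called lower each time (-1.23 to -1.06, highest adjusted p 0.0346), including with DESeq2. No gene of the 8 was called higher, except Klrd1 with the rRNA share as covariate, which made that count 1; under it the log2 fold changes of Gzmb (0.13) and Nkg7 (0.063) changed sign. Leaving out each library in turn, the number of the 8 called lower ran from 0 to 2, that of all genes called from 2477 to 4396 (4035 with all libraries) and that called higher from 821 to 1964 (1692 with all libraries). The log2 fold changes then ran from -0.030 to 0.71 for Gzma, -0.20 to 0.15 for Gzmb, -0.42 to 0.068 for Nkg7 and -0.17 to 0.23 for Klrk1, so these 4 have no fixed direction, and the cause was not tested. Prf1 (-0.92 to -0.25), Ncr1 (-1.01 to -0.34) and Klrd1 (0.18 to 0.45) kept theirs. No scaling moved the median of all genes by 0.1. No paired analysis was possible because the columns carry no replicate numbers that match the labels, so the fit with a replicate block was not run. With 3 libraries a group and low counts, the 95% intervals of Gzma, Gzmc, Prf1, Nkg7 and Ncr1 each span more than 1 log2 unit, and Gzmd and Gzme could not be compared. Of the calls named from the lists, those of Il12a (DESeq2, no filter and the rRNA covariate, adjusted p = 0.0898 to 0.161; it was not tested with the filter of 1 CPM or with counts divided to fragments), Il15 (upper quartile scaling, no filter, thinning and the rRNA covariate, 0.0505 to 0.101), Il2ra (thinning and the rRNA covariate, 0.0530 and 0.0772), Serpinb6a (upper quartile scaling and the rRNA covariate, 0.0525 and 0.0631) and Casp8 (the rRNA covariate, 0.0510) were lost. Of named genes that had missed the threshold, Cd247 was called higher under 4 of these 8 alternatives, and Cd4 lower under 3, H2-T23 lower and Cd226 lower under DESeq2 and without the filter, and Klrc1 higher and Ulbp1 lower with the rRNA covariate.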

Other observations

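Plasmacytoid dendritic cell and B cell markers, fixed as lists of other immune cells, did not move as whole lists. Siglech, a surface receptor of plasmacytoid dendritic cells, stood at 7.72, 12.3 and 8.07 CPM in clodrosome libraries A, B and C, against 1.77, 4.69 and 4.98 CPM in encapsome libraries A, B and C (log2 fold change 1.29, adjusted p = 0.0239, edgeR). The call was lost without clodrosome library B (adjusted p = 0.0575, edgeR). Irf8, a factor that macrophages share, fell by 0.90 (adjusted p = 0.00057, edgeR). Of the 5 plasmacytoid dendritic cell genes 2 were called higher and 1 lower, against 9.41% and 13% of all genes. Of 6 B cell markers 2 passed the filter, and Cd79b was called lower (-1.43, adjusted p = 0.0144, edgeR), a call lost without encapsome A (adjusted p = 0.0551, edgeR) or B (adjusted p = 0.0516, edgeR). Retnlg, a neutrophil gene, averaged 37.2 ± 11.3 CPM in clodrosome skin and 8.77 ± 1.87 CPM in encapsome skin (SD, n = 3 each; log2 fold change 2.07, adjusted p = 0.00037, edgeR).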
